A study of Mus musculus with 3 samples.

Results

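The guanylate-binding protein (GBP) and immunity-related GTPase (IRG) genes measured here were Gbp2, Gbp3, Gbp4, Gbp5, Gbp6, Gbp7, Igtp, Irgm1, Irgm2 and Iigp1. They were chosen by symbol, as the genes to which the RefSeq accession of an array probe leads, and make up 10 of the 20886 genes named on the array. They were read by 13 probes, with 2 probes each for Gbp6, Irgm1 and Iigp1 and 1 probe for each of the other 7 genes. Expression was measured by 1-colour Agilent arrays in CD4+ T cells of female C57BL/6 mice aged 8 weeks, 2 days after stimulation, from 20 ng of RNA. The 3 groups, with 1 array each, were Dll1-/- (Dll1 KO), Rbpj-/- (Rbpj KO) and wild type (WT). Dll1 is a ligand of Notch receptors and Rbpj the DNA-binding partner of activated Notch, and the series asks about survival signals that pass through Dll1 on activated helper T cells. The labels do not state in which cells each gene was deleted, which stimulus was used or whether mice were pooled. Each genotype rests on 1 array, so the spread between mice is unknown and no test was made.

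The 2 families are GTPases that cells make in response to interferons, above all interferon gamma. In mice, genes that answer to interferons carry GAS and ISRE elements in their promoters, and Irf1 is a factor that binds ISRE elements. GBP proteins assemble on the vacuoles of intracellular pathogens and on bacteria in the cytosol, and several feed inflammasome activation. Among the IRG proteins, Irgm1, Irgm2 and Igtp (also called Irgm3) sit on the cell's own membranes and hold the others in check, while effectors such as Iigp1 load onto pathogen vacuoles and break them. Mouse Irgm1 is also known from activated CD4+ T cells, where it protects against death of cells exposed to interferon gamma.

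Promoter sequences are shown because all members were lowest in the Rbpj KO and the letters of GAS and ISRE elements can be looked for in them. RefSeq promoters of build GRCm38.p6, taken as the 250 bases before the gene start, were at hand for Gbp2, Gbp3, Gbp5, Gbp7, Irgm1, Igtp and Irgm2, with 2 starts for Gbp3. Both strands were searched for the letters GAAA followed by any 2 bases and GAAA again, called ISRE-like here, and for the GAS letters TTCNNNGAA, and no match of one overlapped a match of the other. The 5 sequences below run 5′ to 3′ on the gene's strand, with the matches in capitals. They are Gbp2, one of the 2 genes with the largest difference between the Rbpj KO and WT (chr3:142620413-142620662, plus strand), Gbp3, with the smallest (chr3:142559794-142560043, plus strand), Gbp7 of the same gene cluster (chr3:142530086-142530335, plus strand), and the neighbours Igtp (chr11:58199306-58199555, plus strand) and Irgm2 (chr11:58214727-58214976, plus strand).
Gbp2: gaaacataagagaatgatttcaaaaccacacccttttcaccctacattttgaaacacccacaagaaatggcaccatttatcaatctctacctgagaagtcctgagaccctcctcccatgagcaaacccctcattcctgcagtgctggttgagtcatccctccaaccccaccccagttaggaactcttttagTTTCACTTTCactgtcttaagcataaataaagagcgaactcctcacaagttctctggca
Gbp3: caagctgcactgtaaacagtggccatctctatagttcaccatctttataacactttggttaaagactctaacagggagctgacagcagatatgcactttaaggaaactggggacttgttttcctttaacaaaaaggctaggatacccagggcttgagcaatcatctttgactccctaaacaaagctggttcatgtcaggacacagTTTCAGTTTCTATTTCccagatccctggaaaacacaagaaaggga
Gbp7: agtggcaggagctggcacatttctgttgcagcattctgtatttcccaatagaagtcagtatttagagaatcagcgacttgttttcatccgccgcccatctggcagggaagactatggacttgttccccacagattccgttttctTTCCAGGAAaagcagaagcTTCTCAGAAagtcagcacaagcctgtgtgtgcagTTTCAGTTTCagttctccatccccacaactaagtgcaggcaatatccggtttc
Igtp: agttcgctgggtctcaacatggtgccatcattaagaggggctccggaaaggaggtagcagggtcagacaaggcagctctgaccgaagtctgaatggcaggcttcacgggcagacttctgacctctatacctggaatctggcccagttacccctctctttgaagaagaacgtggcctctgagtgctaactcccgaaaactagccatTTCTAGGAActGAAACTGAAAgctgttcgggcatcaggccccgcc
Irgm2: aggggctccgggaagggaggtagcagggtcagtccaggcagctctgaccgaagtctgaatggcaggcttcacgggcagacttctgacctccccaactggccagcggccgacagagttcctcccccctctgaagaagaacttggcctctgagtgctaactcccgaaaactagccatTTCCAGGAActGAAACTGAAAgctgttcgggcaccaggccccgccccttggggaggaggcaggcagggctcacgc

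An ISRE-like match was present in 7 of the 7 member genes with a promoter, and in 7 of their 8 promoters, against 2.98% of all 32851 promoters. A GAS match was present in 4 of 7, namely Gbp5, Gbp7, Igtp and Irgm2, against 7.02% of all promoters, and all 4 held both kinds, against 0.332%. In Gbp2 the only match was TTTCACTTTC, 59 to 50 bases upstream of the start. Gbp3 held 2 overlapping ISRE-like matches, TTTCAGTTTC at 45 to 36 bases and TTTCTATTTC at 39 to 30 bases upstream, and none before its second start. In Igtp the GAS match TTCTAGGAA lay 45 to 37 bases upstream and was followed by GAAACTGAAA at 34 to 25 bases. Irgm2 had the same order, with TTCCAGGAA at 75 to 67 bases and GAAACTGAAA at 64 to 55 bases upstream, and its promoter shared an unbroken run of 55 bases with that of Igtp. The next longest run shared between 2 member promoters was 13 bases, between Gbp7 and Gbp3. Among 9 relatives of the families with a promoter in the table, 5 held an ISRE-like match and 4 a GAS match. A match describes letters in this window and does not show binding.

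The arrays were of similar quality, with 50.1% of 55678 probes well above background in the Dll1 KO, 47.3% in the Rbpj KO and 46.6% in WT. Repeated spots of a probe had a median SD of 0.058 to 0.068 log2. The probe for Dll1 stayed near background on all 3 arrays and so could not check that label. The 2 Rbpj probes differed by -0.35 and -0.66 log2 between the Rbpj KO and WT, and it is not stated whether they lie in the deleted sequence. Cd3e, part of the CD3 complex, had differences from WT of 0.04 log2 (Dll1 KO) and -0.07 log2 (Rbpj KO). Those of the 2 Cd4 probes were -0.05 and -0.04 log2 (Dll1 KO), against 0.51 and 0.24 log2 (Rbpj KO). All 8 CD4+ T cell markers were well above background on every array.

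Levels below are the log2 processed signal less the 75th percentile of its array, so that 0 is the signal of a probe at that percentile. All 13 member probes were well above background on all 3 arrays, with signals between 563 and 100082, and none was saturated. The scanner's own error estimate was 10% of the signal on these probes, which gives 0.20 log2 for a difference between 2 arrays and covers neither mice nor cultures. It ran only from 10% to 10.02% over the member probes and arrays. Counts in scanner errors are thus cuts at a nearly fixed size of difference. Levels of different probes are not set against each other, since probes differ in brightness for the same RNA.

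The GBP genes of chromosome 3 are clustered, and the cluster is known from mice for resistance to Toxoplasma. Gbp2, whose protein coats Toxoplasma vacuoles, had a level of 6.82 log2 in the Dll1 KO, 6.04 in the Rbpj KO and 6.98 in WT, from processed signals of 17524, 9304 and 22462. The Rbpj KO array thus stood apart, and the Dll1 KO lay within 1 scanner error of WT. Gbp3 was at 4.22 log2 in the Dll1 KO, 4.20 in the Rbpj KO and 4.43 in WT, so that the 2 knockout arrays gave nearly the same level. Gbp5, known for promoting activation of the Nlrp3 inflammasome, was at 5.12 log2 in the Dll1 KO, 4.72 in the Rbpj KO and 5.30 in WT. For Gbp7, linked in macrophages to assembly of the phagocyte oxidase, the levels were 2.95, 2.48 and 3.17 log2 in the Dll1 KO, the Rbpj KO and WT. Gbp2, Gbp5 and Gbp7 therefore had WT highest and the Rbpj KO clearly lowest. In Gbp3 the Dll1 KO and the Rbpj KO differed from WT by -0.22 and -0.24 log2, little more than 1 scanner error.

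On chromosome 5, Gbp4 had levels of 7.26 log2 in the Dll1 KO, 6.71 in the Rbpj KO and 7.35 in WT. Gbp6 was read by 2 probes that differed in what they showed for the Dll1 KO. Probe A_55_P2052380 gave 9.33 log2 in the Dll1 KO, 8.08 in the Rbpj KO and 9.0 in WT, with the Dll1 KO highest. Probe A_55_P2052385 gave 2.72 log2 in the Dll1 KO, 2.22 in the Rbpj KO and 3.17 in WT, with WT highest. Both placed the Rbpj KO lowest. GBP genes have relatives of near-identical sequence that may share a probe's signal. Which transcripts each probe binds was not analysed here.

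Of the 3 regulatory IRG genes, Igtp had levels of 7.56 log2 in the Dll1 KO, 7.04 in the Rbpj KO and 7.71 in WT. Irgm1 was at 5.52, 5.15 and 5.73 log2 in the Dll1 KO, the Rbpj KO and WT by probe A_51_P262171, and at 2.16, 1.99 and 2.44 log2 by probe A_55_P1981479. Its 2 probes gave the same order of the arrays. Irgm2 was at 5.0 log2 in the Dll1 KO, 4.79 in the Rbpj KO and 5.31 in WT. The effector Iigp1, on chromosome 18, had levels of 3.24, 2.72 and 3.35 log2 in the Dll1 KO, the Rbpj KO and WT by probe A_55_P1990633 and of 3.41, 2.95 and 3.52 log2 by probe A_55_P2410304, again with one order.

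**Figure D1:**
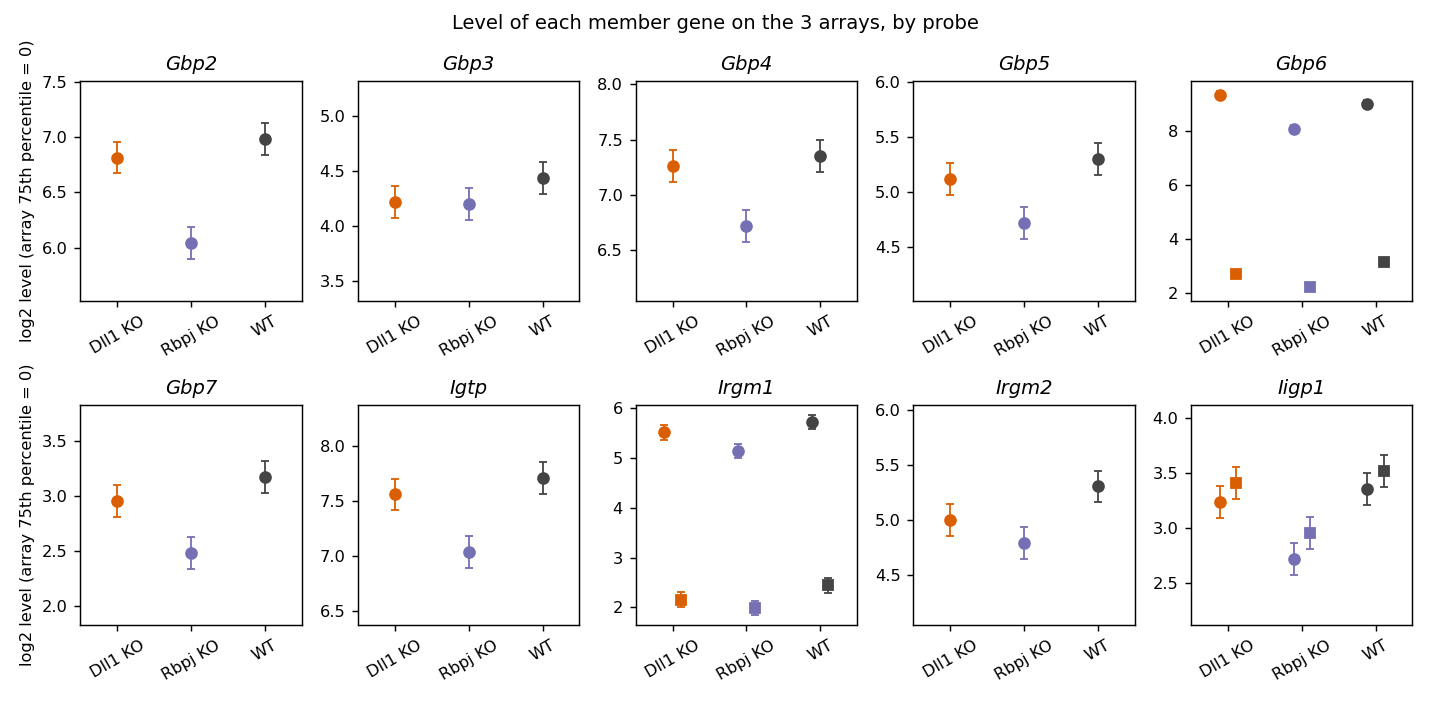
Level of each member gene on the 3 arrays (log2, array 75th percentile at 0), 1 panel per gene with its own vertical axis, circles and squares for the probes of a gene. Bars are the scanner's own error of a single array, not replicate error. The Rbpj KO is the lowest array for all 13 probes, and the Dll1 KO lies below WT for 12 of 13, the exception being a Gbp6 probe.

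The Igtp probe was printed in 10 spots on each array and gives the best view of measurement error within an array. Its spots ranged over 7.51 to 7.59 log2 in the Dll1 KO, 6.94 to 7.07 in the Rbpj KO and 7.64 to 7.76 in WT. The mean and SD over spots were 7.56 ± 0.03 log2 in the Dll1 KO, 7.04 ± 0.04 in the Rbpj KO and 7.71 ± 0.04 in WT (SD, n = 10 spots of 1 array each). No spot of one array reached the range of another. How many of the other probes with repeated spots are separated in this way was not computed. The difference between the Dll1 KO and WT, -0.15 log2, was nonetheless smaller than the scanner's error of 0.20 log2, while that between the Rbpj KO and WT, -0.67 log2, exceeded 2 such errors. Spots are repeats of one labelled RNA, and the spread between mice was not measured. The 9 spots in the lower-numbered rows of the array and the single spot in the higher-numbered rows gave -0.15 and -0.15 log2 for the Dll1 KO against WT and -0.66 and -0.75 log2 for the Rbpj KO against WT.

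**Figure D2:**
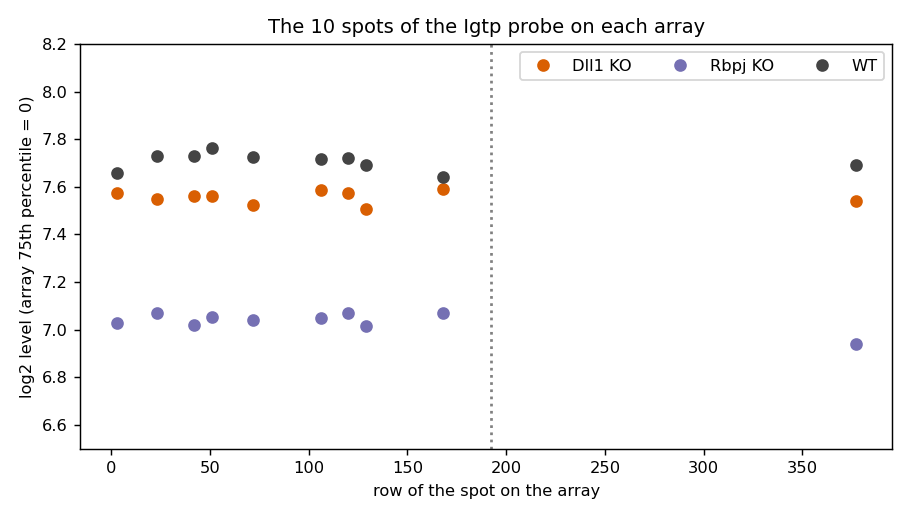
Level of each of the 10 spots of the Igtp probe (log2, array 75th percentile at 0) by its row on the array, for the Dll1 KO, the Rbpj KO and WT, with the dotted line at the middle row. The 3 arrays form separate bands, with the Rbpj KO spots between 6.94 and 7.07 and the WT spots between 7.64 and 7.76.

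In the Rbpj KO, all 10 member genes were lower than in WT, and 6 of them were at least 1.5-fold lower: Gbp2, Gbp4, Gbp6, Gbp7, Igtp and Iigp1. Gbp2 was 1.92-fold lower (-0.94 log2) and Gbp6 likewise 1.92-fold lower (-0.94 log2, mean of its probes at -0.93 and -0.96). Gbp7 was 1.62-fold lower, Igtp 1.59-fold, Gbp4 1.56-fold and Iigp1 1.52-fold. Gbp5 lay just outside that size at 1.49-fold, Irgm1 and Irgm2 were each 1.43-fold lower, and Gbp3 was 1.18-fold lower. The share of all 11578 genes measured on the 2 arrays that was at least 1.5-fold lower was 6.91%, and 60.2% were lower by any amount. No member was 1.5-fold higher, a size reached by 4.86% of genes. Members were bright, and of the 2515 genes with a signal at least that of the dimmest member on each array, 5.13% were at least 1.5-fold lower and 78.4% were lower by any amount. The member median was -0.62 log2, against -0.07 over all genes and -0.16 over the genes as bright. No member reached 2-fold, a size reached downwards by 2.15% of genes. Under median scaling 2 members did, Gbp2 and Gbp6, and under spike-in scaling 9 did. The all-gene medians were then -0.24 and -0.67 log2, with 12.4% and 61.4% of all genes at least 1.5-fold lower. The share of all genes at 2-fold was not computed for these scalings. By probe, 12 of 13 differences exceeded 2 scanner errors, Gbp3 being the exception. The share of all probes past that size was not computed, so this count has no background to be set against.

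In the Dll1 KO, all 10 genes were again below WT, by far less. The member median was -0.17 log2, against -0.03 over all 11811 genes measured on both arrays and -0.05 over the genes as bright. The differences ran from -0.06 log2 for Gbp6, whose probes pointed opposite ways at 0.33 and -0.46 log2, to -0.30 log2 for Irgm2. No member was 1.5-fold lower, against 2.25% of all genes and 0.358% of those as bright, and none was 1.5-fold higher, against 1.95% of genes. Being lower by any amount was common, at 55.7% of all genes and 64.8% of those as bright. Of the 13 probes, 6 differed by less than 1 scanner error, and 1 exceeded 2 errors, the Gbp6 probe at -0.46 log2. The same shares over all probes were not computed. The sign for Gbp6 turned to 0.02 log2 after normexp background correction with quantile normalization, and the other 9 members stayed lower. The lower levels in the Dll1 KO are thus of a size near the scanner's error for most members taken singly.

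Set directly against the Dll1 KO, the Rbpj KO was lower in all 10 members, with a median of -0.48 log2 against -0.03 over all 11794 genes measured on both arrays. Gbp6 was lower by the most, at -0.88 log2, followed by Gbp2 at -0.78 log2, and these 2 were at least 1.5-fold lower, as were 6.34% of all genes and 6.04% of those as bright. Lower by any amount were 55.1% of all genes and 69.7% of those as bright. Gbp3 differed by -0.02 log2, within the scanner's error, and turned to 0.06 log2 after normexp with quantile normalization. Probe by probe, 8 of 13 differences exceeded 2 scanner errors and 2 were within 1, those of Gbp3 and of the Irgm1 probe A_55_P1981479. Here too the shares over all probes were not computed. The order WT above Dll1 KO above Rbpj KO, at the gene level, held for 10 of 10 members, against 27.1% of 11542 genes measured on all 3 arrays and 41.3% of the genes as bright. The comparisons share arrays and are not independent of each other.

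**Figure D3:**
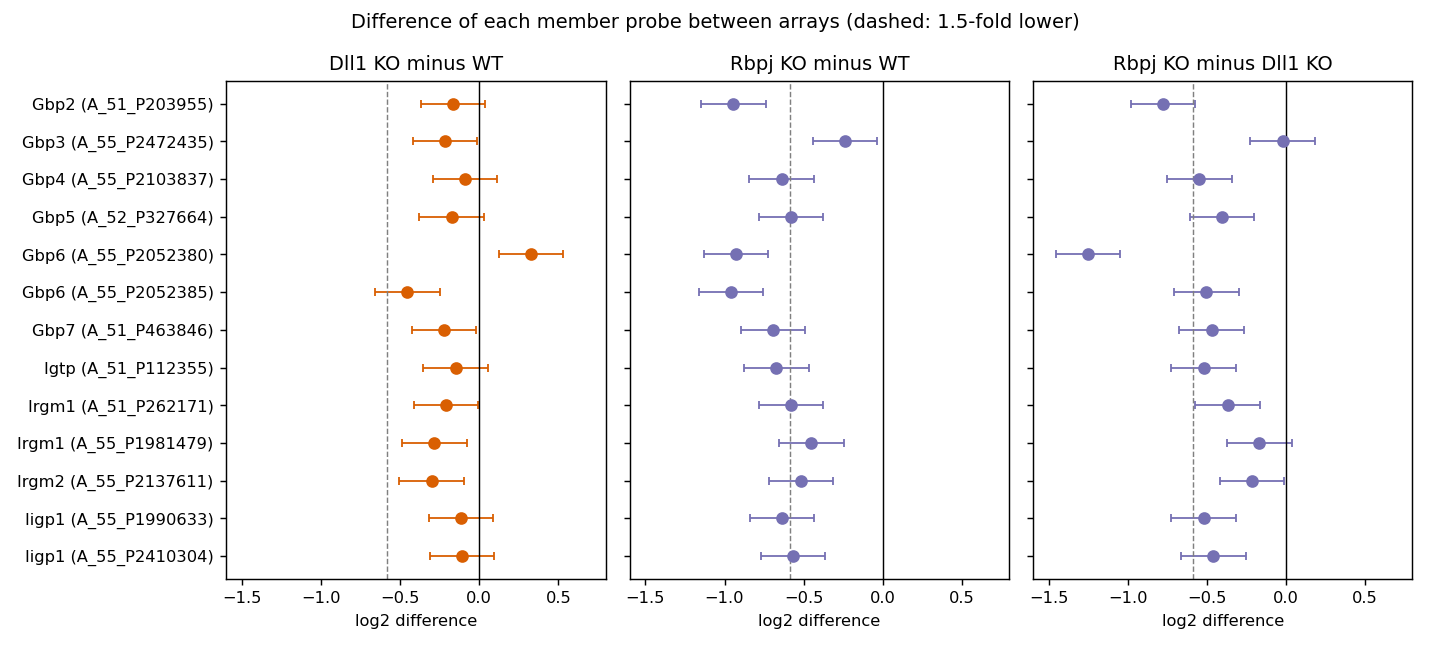
Log2 difference of each member probe for the Dll1 KO minus WT, the Rbpj KO minus WT and the Rbpj KO minus the Dll1 KO, with the scanner's own error of the difference as bars, the dashed line at 1.5-fold lower and the solid line at 0. In the middle panel every probe lies below 0, from -0.96 to -0.24, and in the left panel one Gbp6 probe lies at 0.33.

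**Figure D4:**
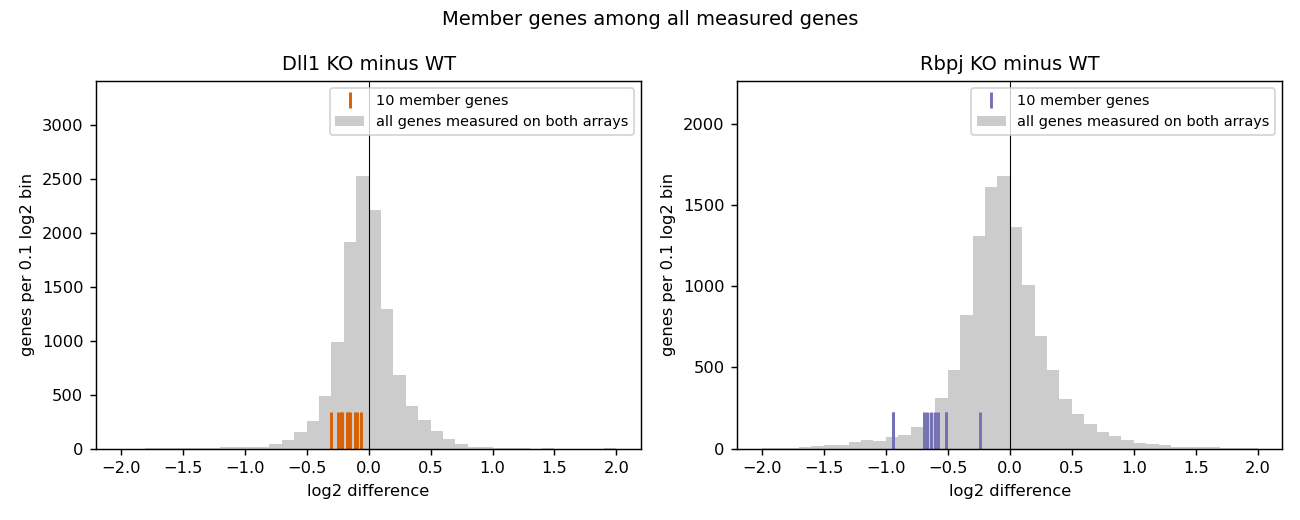
Number of genes per 0.1 log2 bin of difference between -2 and 2, for all genes measured on both arrays (grey), with the 10 member genes as coloured ticks, for the Dll1 KO minus WT and the Rbpj KO minus WT. Members run from -0.30 to -0.06 in the left panel and from -0.94 to -0.24 in the right one, where their median is -0.62 against -0.07 for all genes.

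How far these differences lie from 0 depends on how the arrays are scaled, more than their distance from other genes does. Scaling to the E1A spike-in spots moved the all-gene median for the Rbpj KO against WT to -0.67 log2 and the member median to -1.22, with 10 of 10 members at least 1.5-fold lower beside 61.4% of all genes. The gap between the member median and the all-gene median was -0.55 log2 under each scaling by a constant. Such a constant shifts all genes alike and cannot change this gap. After normexp with quantile normalization the gap was -0.45 log2. For the Dll1 KO against WT it was -0.15 log2 under scaling by a constant and -0.12 log2 after normexp. In RNA from a bulk sample, fewer cells that express these genes and less RNA per cell cannot be told apart.

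The members did not move by equal amounts. The 6 GBP genes had a median of -0.67 log2 in the Rbpj KO against WT and the 4 IRG genes one of -0.56 log2, and in the Dll1 KO the medians were -0.17 and -0.20 log2. By location in the Rbpj KO, the medians were -0.64 log2 for the 4 genes on chromosome 3, -0.79 for the 2 on chromosome 5 and -0.52 for the 3 on chromosome 11, and Iigp1 on chromosome 18 was at -0.60. Neighbours outside the families were taken by gene order, 2 on each side of each cluster, among genes measured on all 3 arrays. Clone and predicted names were left out, so a neighbour need not be the adjacent gene. These 20 genes had a median of -0.09 log2 in the Rbpj KO and -0.01 log2 in the Dll1 KO. Among these neighbours, Gemin5, which lies beside the Igtp and Irgm2 cluster and encodes a subunit of the survival motor neuron complex, was at -0.61 log2 in the Rbpj KO, and the zinc finger gene Zfp951 beside the chromosome 5 cluster was at 0.99 log2. In the Dll1 KO, Fbn2, a gene for fibrillin among the neighbours taken for Iigp1, was at -0.61 log2. These 3 neighbours were picked after their values were seen, as those past 1.5-fold in either direction. Zfp951 and Fbn2 had levels close to the lowest signals well above background, and after normexp they were at 0.20 and -0.12 log2 in these comparisons. Gemin5 was at -0.49 log2 after normexp, and Zfp951 at 0.39 under spike-in scaling.

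Position on the array surface was also measured. The spots around each of the 22 member spots, within 15 spots, had median differences between -0.12 and -0.02 log2 in the Rbpj KO against WT and between -0.05 and 0.02 log2 in the Dll1 KO against WT. The member median computed from the lower-numbered rows alone was -0.64 log2 in the Rbpj KO, and from the higher-numbered rows alone it was likewise -0.64, with 7 genes in each.

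Relatives in the same 2 families gave mixed values. Of 16 relatives with a named probe, 13 were measured on both arrays of each comparison with WT. In the Rbpj KO, 8 of the 13 were lower and 3 were at least 1.5-fold lower, with a median of -0.19 log2. The 3 were Gm4951, an IRG gene, at -0.81 log2, Gbp8 at -0.72 and Gm12250, whose product Irgb10 attacks bacterial membranes, at -0.63. Gbp10 was at -0.46 log2, the IRG gene Ifi47 at -0.40, Gbp9 at -0.34 and Irgq at -0.19. Tgtp2, an IRG effector with a near-identical copy in Tgtp1, was at -0.10 log2 as the mean of probes at 0.29 and -0.49, and Tgtp1 itself was at 0.17. The Tgtp2 probes had WT signals of 155 and 83344, in the same order. The remaining 4 were 9930111J21Rik1 at 0.27 log2, Gm12185 at 0.10, F830016B08Rik at 0.06 and Gvin1, a very large interferon-induced GTPase, at 0.04. Gm12185 and F830016B08Rik had signals of 22.1 to 32.4, near the lowest signals well above background (13.6 to 19.2 by array). All 5 relatives above 0, Tgtp1 among them, were below it under spike-in scaling, as were Gm12185, F830016B08Rik and Gvin1 under median scaling and Gm12185 after normexp.

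In the Dll1 KO, 10 of the 13 relatives were lower than WT, none by 1.5-fold, with a median of -0.13 log2. Gbp9 was at -0.30 log2, Tgtp1, Tgtp2 and Gm12250 each at -0.21, Gm4951 at -0.18, Gbp10 at -0.15, Irgq at -0.13, 9930111J21Rik1 at -0.11, and Gbp8 and Ifi47 each at -0.10. F830016B08Rik was at 0.25 log2, Gvin1 at 0.05 and Gm12185 at 0.04. Under spike-in scaling the last 2 were below 0, and Gm12185 was also below 0 under median scaling and normexp. Gbp2b went the other way from the members. Its level was -2.47 log2 in the Dll1 KO, -1.74 in the Rbpj KO and -3.52 in WT, where it was not well above background. A bound is given by the lowest WT signal well above background, and against it Gbp2b was at least 1.67-fold higher in the Dll1 KO, and at least 2.76-fold higher in the Rbpj KO. These bounds hold for the 75th percentile scaling. The difference from WT under spike-in scaling was 0.88 log2 (Dll1 KO) and 1.18 log2 (Rbpj KO), and after normexp it was 0.25 and 0.47 log2 in the same order. Its other probe stayed near background throughout, as did those of Irgc1 and 9930111J21Rik2.

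The signals that induce the families were themselves lower in the Rbpj KO in part. Of 12 genes of interferon gamma and its signalling, 8 were lower and 5 at least 1.5-fold lower, with a median of -0.42 log2, while in the Dll1 KO 6 of 12 were lower, none by 1.5-fold, with a median of -0.02 that turned to 0.02 after normexp. Ifng, the cytokine itself, had levels of 3.96 log2 in the Dll1 KO, 2.56 in the Rbpj KO and 3.85 in WT, and was the gene with the lowest difference of the list in the Rbpj KO at -1.29 log2. Socs1, an inhibitor of the pathway that interferon gamma induces, was at -1.21 log2 in the Rbpj KO and -0.11 in the Dll1 KO. Irf1 was at -0.62 log2 in the Rbpj KO and -0.17 in the Dll1 KO by its probe well above background on every array, and its second probe was not well above background in the Rbpj KO. Ifngr2, a receptor chain, was at -0.64 log2 in the Rbpj KO and -0.27 in the Dll1 KO.

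Other genes known to follow interferon gamma had a median of -0.54 log2 in the Rbpj KO, with 18 of 20 lower. Of these, 8 reached 1.5-fold, beside 6.91% of all genes, and 1 gene of the list was higher by that size, beside 4.86%. The count that reached 1.5-fold lower was 3 after normexp, 14 with scaling by the median and 18 with spike-in scaling, with medians of -0.33, -0.70 and -1.13 log2. Of all genes, 2.36%, 12.4% and 61.4% were that much lower in the same order, with medians of 0.01, -0.24 and -0.67 log2. The exception was Ciita, the master regulator of MHC class II genes, at 1.64 log2 in the Rbpj KO and -0.08 in the Dll1 KO, with its Rbpj KO value at 0.82 after normexp. In the Dll1 KO 16 of 21 genes of the list were lower, with a median of -0.13 log2. The chemokine genes Cxcl10 and Cxcl9 were at 0.68 and 0.78 log2 there, the second with levels near background. Cxcl10 was at -0.53 log2 in the Rbpj KO.

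Antiviral genes induced by type I interferon were the list with the lowest median in the Rbpj KO. All 22 measured genes were lower and 16 were at least 1.5-fold lower, with a median of -0.83 log2, against 19 of 22 lower, none by 1.5-fold, and a median of -0.19 in the Dll1 KO. After normexp, 21 of 22 were lower in the Rbpj KO and 11 at least 1.5-fold lower, with a median of -0.57 log2, and under spike-in scaling all 22 reached that size, with a median of -1.42. Ifit3 was at -1.71 log2 in the Rbpj KO, Ifit1 at -1.58, Ifi44 at -1.32 and Isg15 at -1.31. In the Dll1 KO the lowest were Xaf1 at -0.34 log2 and Ifit3 at -0.33. Among the 8 genes of type I interferon signalling, 6 were lower in the Rbpj KO and 3 were at least 1.5-fold lower, with a median of -0.37 log2, and 6 were lower in the Dll1 KO with a median of -0.13. Irf7, the factor that amplifies type I interferon, was at -1.51 log2 in the Rbpj KO and -0.55 in the Dll1 KO. Tyk2, a receptor kinase, was at -0.40 log2 in the Dll1 KO. The members' median of -0.62 log2 in the Rbpj KO thus lay between those of the antiviral genes and the interferon gamma induced genes. No test sets one list against another, and some genes, Socs1, Irf1 and Usp18 among them, are in more than one list.

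Among genes that act with GBP and IRG proteins, the values turned on the scaling. The LC3 conjugation machinery, which places these GTPases on vacuoles, had 6 of 11 genes lower in the Rbpj KO and none past 1.5-fold, with a median of -0.05 log2. That median was 0.00 log2 after normexp and -0.22 with median scaling. Spike-in scaling put it at -0.65, with 11 of 11 genes lower and 6 past 1.5-fold. In the Dll1 KO 9 of 11 were lower with a median of -0.15 log2, with Gabarap at -0.33 and Gabarapl2 at -0.27. Atg7, the enzyme that activates LC3 for conjugation, was at 0.57 log2 in the Rbpj KO as a mean of probes and at 0.20 by its probe well above background on every array, and Gabarapl1 was at 0.46. Under spike-in scaling Atg7 stood at -0.02 log2 and Gabarapl1 at -0.13. Of the inflammasome genes downstream of GBP proteins, 5 of 8 were measured, with medians of 0.57 log2 in the Rbpj KO and 0.13 in the Dll1 KO. These turned to -0.03 and -0.04 under spike-in scaling, where the all-gene medians were -0.67 and -0.20 log2. Casp4, which encodes the mouse caspase-11 that senses bacterial lipopolysaccharide, was at 1.01 log2 in the Rbpj KO, as the mean of probes at 1.00 and 1.03, and at 0.35 in the Dll1 KO. Its value in the Rbpj KO was 0.42 log2 under spike-in scaling. Aim2, a DNA sensor, was at 0.44 log2 in the Dll1 KO.

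**Figure D5:**
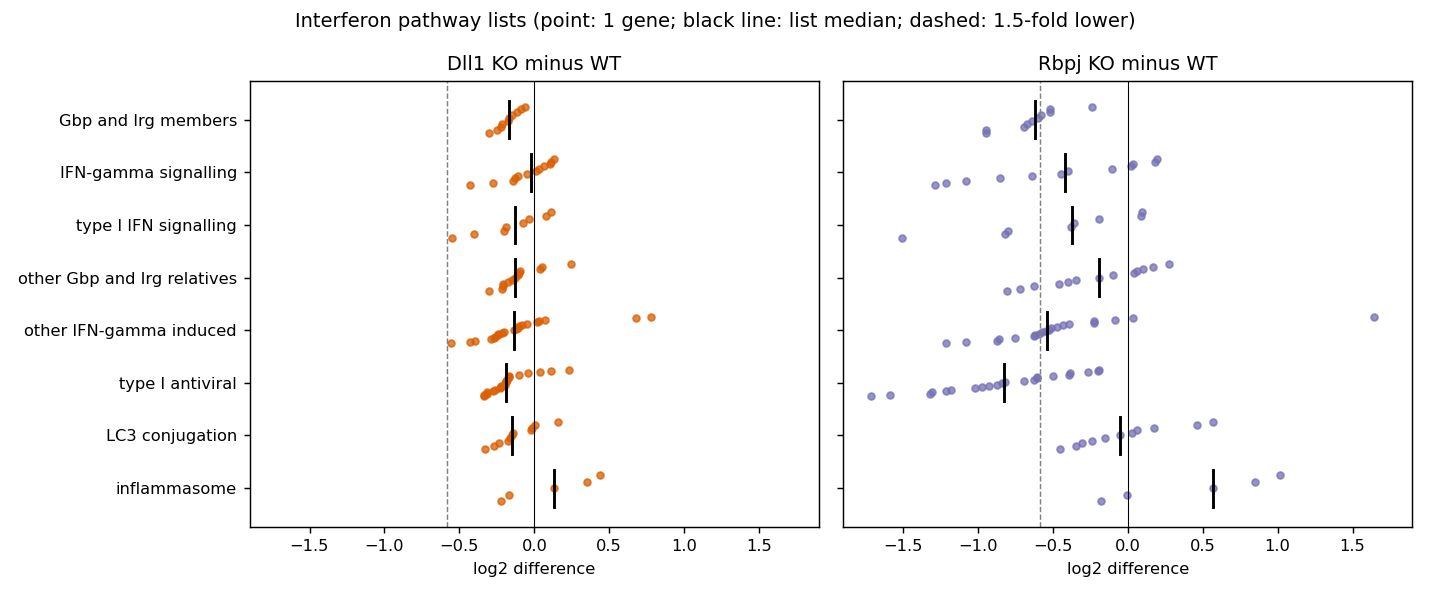
Log2 difference of every measured gene (points) in the member families and 7 lists around them, for the Dll1 KO minus WT and the Rbpj KO minus WT, with the list median as a black line, 0 as a thin line and 1.5-fold lower as the dashed line. In the right panel the medians run from -0.83 for the type I antiviral genes to 0.57 for the inflammasome genes, with the members at -0.62.

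The pattern of the members over the 3 arrays, each gene centred on its own mean, was 0.10 in the Dll1 KO, -0.38 in the Rbpj KO and 0.26 in WT on the log2 scale. Igtp, Iigp1 and Gbp7 were the members closest to it, and Gbp3, Gbp6 and Gbp2 the farthest. Among 11007 other genes, the 6 closest by Euclidean distance were Sdf2l1, Cd7, Stag3, Phf1, Trat1 and Ropn1l. Sdf2l1, a chaperone cofactor of the endoplasmic reticulum, was the nearest at a distance of 0.0080, and it differed from WT by -0.15 log2 (Dll1 KO) and -0.63 log2 (Rbpj KO). Cd7 and Trat1 encode proteins of the T cell surface and of the T cell receptor complex, Phf1 a chromatin protein and Stag3 a meiotic cohesin subunit. Likeness over 3 arrays is given only as a description.

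Markers of other cells were measured beside these results, as summed signals relative to the 75th percentile of the array. Such a sum weights each marker by the brightness of its probes. Those of NK cells summed to 7.91 in the Dll1 KO, 1.85 in the Rbpj KO and 6.37 in WT, with 5, 5 and 4 of 8 markers well above background and Ncr1, Klrc1 and Klrk1 near background on all. Gzma, which T cells also express and which was named after its value was seen, was at -3.07 log2 in the Rbpj KO against WT and 0.43 in the Dll1 KO. Without it the sums were 2.55 in the Dll1 KO, 1.37 in the Rbpj KO and 2.38 in WT. Eomes, the highest NK cell marker in the Rbpj KO, was at 0.44 log2 in the Dll1 KO, -0.43 in the Rbpj KO and 0.78 in WT. A sum without both Gzma and Eomes was not computed. Klra8 and Tyrobp were at -1.11 and -0.24 log2 in the Rbpj KO against WT. The 2 CD8 chains summed to 1.21, 0.798 and 1.23 in the Dll1 KO, the Rbpj KO and WT, with 2 of 2 above background. In the same order, B cell markers summed to 23.1, 17.7 and 24.2, with 6, 5 and 4 of 7 above background and Blk not on any array. Macrophage markers summed to 5.68, 6.82 and 6.25, with 3, 2 and 3 of 7 above background and Adgre1, Cd14 and Fcgr1 not on any array. Dendritic cell markers other than Siglech summed to 1.15, 0.809 and 1.21, with 2 of 7 above background on each array, Siglech among them. Siglech was read by a single probe of high signal, at 9.22, 9.26 and 9.07 log2, while Itgax, Flt3, Zbtb46, Xcr1 and Clec9a stayed near background. CD4+ T cell markers summed to 779, 855 and 788. NK, CD8, B cell and, without Siglech, dendritic cell sums were thus lower in the Rbpj KO, the array on which the members were lowest. With Siglech the dendritic cell sum was higher there, at 613 against 540 in WT, as were the macrophage and CD4+ T cell sums. H2-Aa, the only other dendritic cell marker well above background, was at -0.74 log2 in the Rbpj KO against WT. By gene, 4 of 4 NK cell, 2 of 2 CD8 and 3 of 4 B cell markers measured on both arrays had lower levels in the Rbpj KO, with Cd22 at 0.02 log2. So did 1 of 2 dendritic cell, 0 of 2 macrophage and 2 of 8 CD4+ T cell markers. Of all genes measured on both arrays, 60.2% were lower by any amount. Cd79a and Klrb1c were well above background in the Rbpj KO and not in WT. The part of these cells in the members' differences was not tested.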

How the data were processed

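Of the 3 samples, 1 array each was used for the Dll1 KO, the Rbpj KO and WT. The authors deposited scanner files whose processed signal is an intensity, background-subtracted and detrended by Feature Extraction 10.7 per the submitters' processing notes (10.7.1.1 per the file headers). A series table that the authors deposited gives log2 values, and 100% of them were within 0.01 of log2 of that signal plus a constant per array (-7.27, -7.14 and -7.47 in the Dll1 KO, the Rbpj KO and WT), with column medians of -3.40, -3.28 and -3.44, so they carry no centring per gene.

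Control spots and spots marked as outliers (163, 139 and 143 of 62976) were left out, and repeated spots were averaged. Levels are the log2 processed signal less the 75th percentile of its array. Accessions were named through a RefSeq table of GRCm38.p6, which matched 27507 probes (49.4%). Per the file headers the array design used mm9, and the table gave only names, chromosomes and gene order. Gene levels are means over those probes of the gene that were well above background on 1 array or more, and a difference was counted where a probe was so on both arrays. With 1 array per group there was no test, and the number of arrays limits the precision.

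Alternatives were scaling by the array median or by 275 E1A spike-in spots, normexp (offset 50) with quantile normalization in limma 3.58.1 (R 4.3.3), the authors' table, 2 probe filters, 1 probe per gene and the lower- or higher-numbered rows of the array alone. Normexp used the median spot signal, since no mean signal is used here. The members and lists were chosen with earlier results of these data known. The text names all members, Dll1, Rbpj, Cd4 and Cd3e, every measured relative, the 6 most alike genes, and from each other list the genes at least 2-fold apart (at most 4 per comparison with WT), otherwise the 2 largest. Others were chosen after their values were seen. The steps recovered known folds when tested on simulated data, in Python 3.11.15.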

Additional observations from a re-analysis of the deposited data

How the results depend on the processing

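No paired analysis was possible because each group has 1 array and no test was made, and no replicate could be left out. No median or count of the members changed its direction under any alternative run. The member median ranged from -0.34 to -0.12 log2 for the Dll1 KO against WT, from -1.22 to -0.44 for the Rbpj KO against WT and from -0.90 to -0.33 for the Rbpj KO against the Dll1 KO, and the lowest value of each came from spike-in scaling. With that scaling, members at least 1.5-fold lower numbered 10 in the Rbpj KO against WT and 9 against the Dll1 KO, beside 61.4% and 30.1% of all genes. Its constants also lower the all-gene medians, to -0.67 and -0.46 log2 (-0.20 for the Dll1 KO against WT). Scaling by the array median gave 6 members in the Rbpj KO against the Dll1 KO, beside 9.16% of all genes. Normexp with quantile normalization gave 2 members in the Rbpj KO against WT, beside 2.36% of all genes, and the cause was not tested. In the Rbpj KO against the Dll1 KO the count was 1 of 7 genes from the higher-numbered rows, which hold neither the Gbp2 probe nor the Gbp6 probe A_55_P2052380, and 1 with the dimmest measured probe of each gene, an alternative chosen after seeing the data. The all-gene shares there were 6.05% and 6.10%. The count for the Dll1 KO against WT was 0 under every alternative run, beside 0.415% (normexp) to 5.11% (spike-in scaling) of all genes. Of the 30 single-gene differences, 20 moved by more than 0.26 log2 under spike-in scaling and 2 each, those of Gbp6, with the brightest or the dimmest probe, as did 2 of 21, also those of Gbp6, from either part of the rows. The spread between mice was not measured.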
